A study of Mus musculus with 9 samples.

Results

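DNA replication was described here through the 57 genes, of 56691 in the deposited expression table, whose KEGG annotation includes DNA replication (pathway ko03030). The membership comes from the annotation column of the table and uses no expression value. Of the 57 entries, 35 are genes for subunits and enzymes of the replisome, 20 are pseudogenes by their GENCODE biotype, and 2 are annotated as protein-coding and called readthrough transcripts here because their exons are shared with a pair of neighbouring genes, Gm49384 with Dnaaf2 and Pole2 and Gm45928 with Clcf1 and Pold4. The 35 replisome genes held 99.9% of all reads counted on the 57 entries. RNA was taken from RAW264.7, a mouse line of macrophages that can be turned into osteoclast-like cells by RANKL, the ligand of receptor activator of nuclear factor-κB. The 9 libraries fall into 3 groups of 3, namely control (Ctrl), RANKL, and UD+RANKL, written RANKL + UD below, in which UD is uridine, a pyrimidine nucleoside, per the study's methods. All 3 groups were cultured from the same line and collected on day 3, and RANKL is the agent that both treated groups share. Neither the labels nor the methods name the UD dose of these libraries.

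A cell copies its genome once per division. The MCM2-7 ring is loaded at origins and unwinds the duplex, polymerase α-primase lays down short primers, and polymerases ε and δ extend them on the leading and lagging strands while held by the PCNA clamp, which the RFC complex loads. RPA coats the exposed single strands, and FEN1, DNA2, RNase H enzymes and LIG1 remove the primers of Okazaki fragments and join the pieces. Transcription of many of these genes is driven by E2F factors as cells enter S phase, and macrophage precursors leave the cell cycle as they mature and fuse into osteoclasts.

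Each library held between 15951800 and 19746862 counted reads, and the 35 replisome genes had at least 144 reads each in every library. Levels are given as scaled FPKM (fragments per kilobase of exonic length and per unit of sequencing depth). This is the FPKM recomputed with a library size adjusted by the TMM method, so that libraries can be compared. Comparisons between genes also depend on the exonic length used for each. Of 8 tested osteoclast markers, such as Ctsk and Acp5, all 8 rose with RANKL and all 8 fell when UD was added. Their summed scaled FPKM, with the untested Calcr, ran from 46.2 to 49.1 in control (where Calcr was at 0), from 2766 to 2974 in RANKL and from 1633 to 1687 in RANKL + UD. Of 8 macrophage markers, 1 (Cd68) rose and 7 fell with RANKL, and 2 rose and 6 fell with UD, while the 7 fibroblast or osteoblast markers reached at most 0.352 scaled FPKM.

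Most replisome genes fell with RANKL and rose when UD was added to it. Reads on the 57 entries made up 0.245%, 0.244% and 0.253% of all counted reads in the control libraries, 0.185%, 0.188% and 0.192% with RANKL, and 0.265%, 0.272% and 0.267% with RANKL + UD. The RANKL libraries were the lowest and the RANKL + UD libraries the highest, with no overlap between any of the groups. Because the libraries are bulk samples, fewer cells in S phase and less replication RNA per cell cannot be told apart.

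Of the 35 replisome genes, 26 fell and 3 rose in RANKL against control at an adjusted p under 0.05, where 30.2% of all 11995 tested genes fell and 27.3% rose. The median log2 fold change of the 35 was -0.29, beside -0.03 over all tested genes. All 3 RANKL libraries lay below all 3 control libraries for 27 of the 35, and this held for 32.1% of all tested genes. With UD added to RANKL, 28 of the 35 rose and 1 fell, where 18.6% of all tested genes rose and 20.2% fell. Here the median was 0.43 beside 0.005 over all genes, and for 30 of the 35 the RANKL + UD libraries all lay above the RANKL libraries (24.4% of all tested genes). In RANKL + UD against control, 12 rose, 3 fell and 20 did not pass the test, where 26.7% of all tested genes rose and 27.3% fell, and the median was 0.10 beside -0.002. The RANKL libraries enter the first and second comparison and the control libraries the first and the last, so opposite signs in the first and second are in part built into the design. With libraries scaled by their total counts instead of TMM, 36.8% rather than 47.5% of all calls with RANKL and 66.2% rather than 48.0% of those with UD were higher, and the medians over the 37 tested entries moved from -0.27 to -0.36 and from 0.43 to 0.52.

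**Figure D1:**
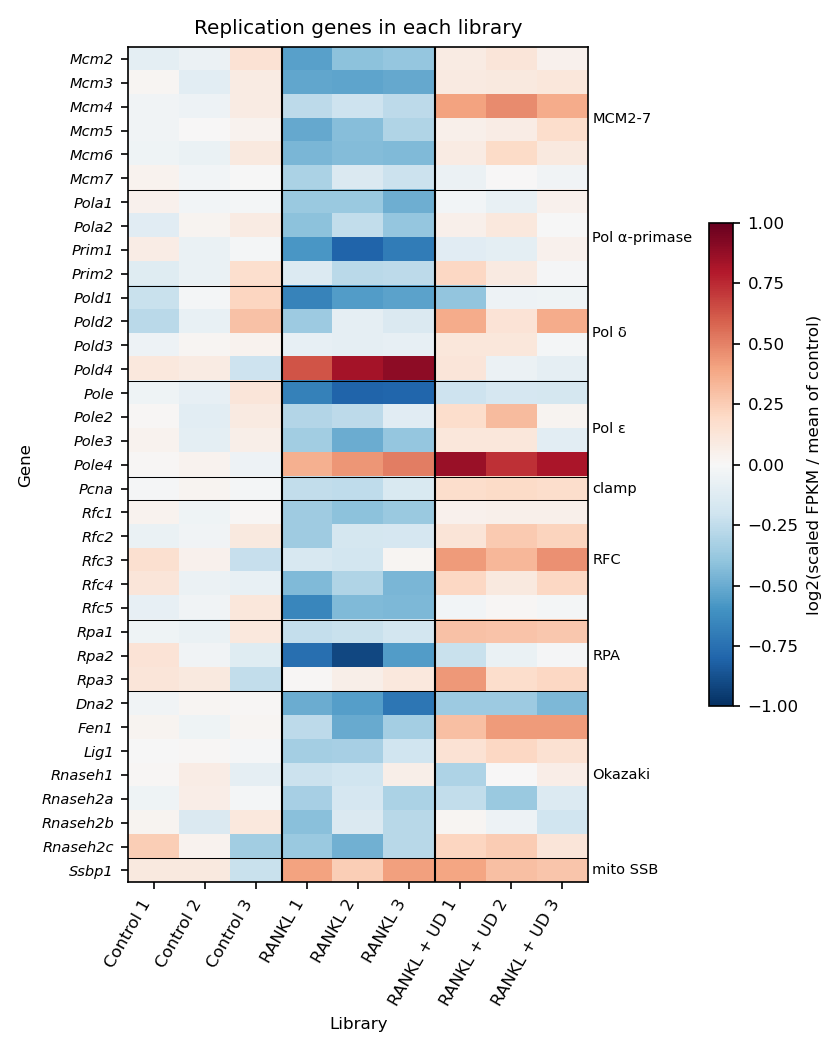
Heat map of the 35 replisome genes (rows, grouped by complex) in the 9 libraries (columns, 3 per group); colour is the log2 ratio of the scaled FPKM to the mean of the 3 control libraries, from -1 (blue) to 1 (red). Most genes are blue in all 3 RANKL columns, with Pold4, Pole4 and Ssbp1 red there.

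**Figure D2:**
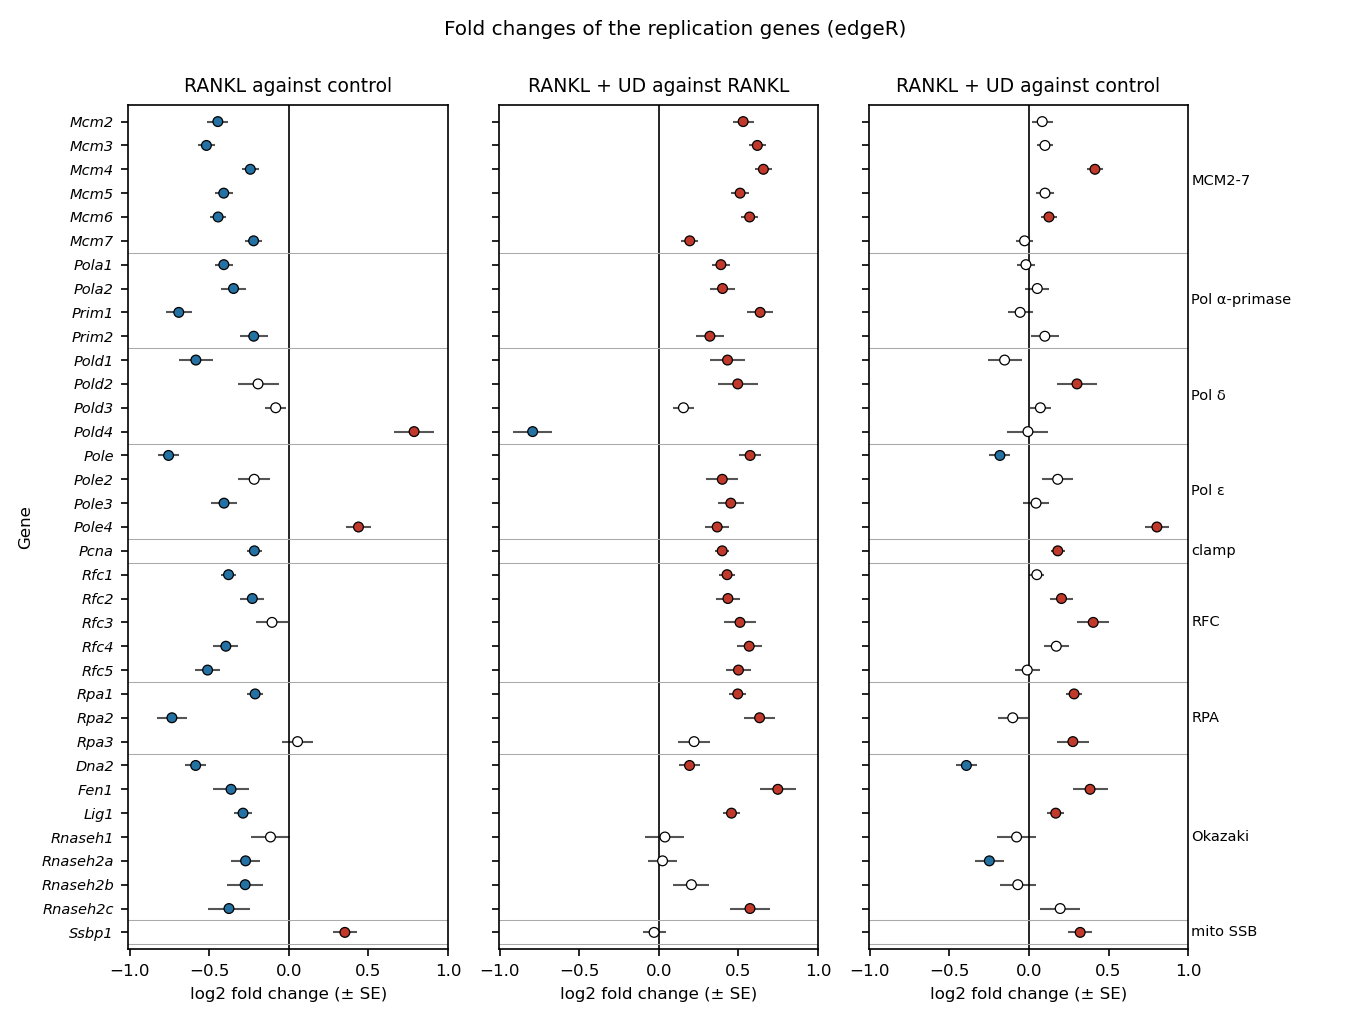
Log2 fold changes of the 35 replisome genes in the 3 comparisons (panels), with bars of 1 SE from edgeR's fit over 9 libraries; filled points passed an adjusted p under 0.05 (red higher, blue lower) and open points did not. In RANKL against control 26 points are blue and 3 red, and in RANKL + UD against RANKL 28 are red and 1, Pold4, is blue.

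The sequences in front of these genes are shown because so many members moved together and because E2F sites are the textbook feature of S-phase promoters. RefSeq windows of 250 bases before to 50 bases after the transcript start (GRCm38.p6) were available for 29 of the 35 genes, in 35 windows. The canonical E2F letters TTTCCCGC, TTTGGCGC, TTTCGCGC or TTTGCCGC, searched on both strands with overlapping matches counted separately, occurred in 12 of the 35 windows (34.3%), beside 744 of 32851 windows of the same length over all genes (2.26%). Those 12 windows belong to 11 genes, namely Mcm3, Mcm5, Mcm6, Mcm7, Pola1, Pold1, Pold3, Pole2, Pole4, Rfc3 and Lig1. The windows of Pole4 overlap and share the same match. Windows over all genes were taken whether or not the gene was expressed here, while the replisome genes were all expressed. CCAAT occurred in 48.6% of the member windows beside 37.4% of all windows, GGGCGG in 65.7% beside 35.7%, and the CHR letters TTTGAA or TTCGAA in 17.1% beside 19.2%. No chance test was made of these shares, and a match is a stretch of letters, not a shown binding site. The 180 bases before the start are printed for 3 genes that fell with RANKL and rose with UD and hold E2F letters there (capitals), and for Pold4, which moved in the opposite direction and holds none in its 300-base window. Of the 11 genes with the letters, Pole4 rose with RANKL. The others had negative log2 fold changes, which for Pold3, Pole2 and Rfc3 did not pass the test. The remaining genes with a window hold none of the letters. Of these, Mcm2, Pcna, Pola2, Prim1, Pole3, Rfc1, Rfc4, Rfc5, Rpa1, Rpa2, Fen1, Dna2, Rnaseh2a and Rnaseh2c fell with RANKL. Pold4 and Ssbp1 rose, and Pold2 and Rpa3 did not pass the test. The 6 genes without a window were Rfc2, Mcm4, Rnaseh1, Prim2, Pole and Rnaseh2b. Whether the letters go with the direction of change was not tested.
Mcm5, chr8:75109329-75109508, plus strand: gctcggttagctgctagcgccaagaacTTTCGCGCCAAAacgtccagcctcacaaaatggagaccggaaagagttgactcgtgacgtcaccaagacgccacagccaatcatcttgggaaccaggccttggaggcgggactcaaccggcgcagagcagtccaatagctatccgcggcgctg
Mcm6, chr1:128359706-128359885, minus strand: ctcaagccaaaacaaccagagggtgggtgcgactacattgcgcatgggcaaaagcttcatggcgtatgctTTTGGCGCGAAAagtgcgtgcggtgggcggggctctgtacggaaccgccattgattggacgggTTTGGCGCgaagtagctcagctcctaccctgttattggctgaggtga
Pola1, chrX:93632156-93632335, minus strand: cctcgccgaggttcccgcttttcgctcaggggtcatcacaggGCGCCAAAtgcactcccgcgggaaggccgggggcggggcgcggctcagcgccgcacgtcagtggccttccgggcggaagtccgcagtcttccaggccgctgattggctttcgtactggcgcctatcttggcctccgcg
Pold4, chr19:4231713-4231892, plus strand: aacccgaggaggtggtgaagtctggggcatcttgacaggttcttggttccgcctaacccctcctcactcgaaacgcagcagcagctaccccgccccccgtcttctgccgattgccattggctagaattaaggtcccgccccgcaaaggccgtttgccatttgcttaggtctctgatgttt
Counted from the transcript start, the E2F letters begin at bases -153 and -149 for Mcm5, at -110, -106 and -47 for Mcm6 and at -138 for Pola1. The paired matches of Mcm5 and of Mcm6 overlap each other, on opposite strands.

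The genes for the MCM2-7 helicase fell with RANKL and rose with UD, all 6 of them in both comparisons. Counts here and for the complexes below stand beside 30.2% of all tested genes lower with RANKL and 18.6% higher with UD. No complex was tested as a set. Mcm3 fell the most with RANKL, with scaled FPKM of 40.9, 37.5 and 42.7 in control, 28.2, 28.0 and 28.3 in RANKL, and 42.9, 43.1 and 43.7 in RANKL + UD. Its RANKL libraries lay well below both other groups, and RANKL + UD just above the highest control library, and its log2 fold change was -0.52 ± 0.053 (SE, adjusted p = 3.00e-08) with RANKL and 0.62 ± 0.052 (SE, adjusted p = 9.47e-09) with UD. Mcm4 measured 30.1, 29.7 and 32.6 in control, 25.7, 26.7 and 25.7 in RANKL, and 40.6, 42.8 and 39.8 in RANKL + UD. For Mcm4 none of the groups overlapped and RANKL + UD was the highest. Its log2 fold change was -0.24 ± 0.054 (SE, adjusted p = 6.03e-04) with RANKL, 0.66 ± 0.053 (SE, adjusted p = 4.93e-09) with UD, the largest of the 6, and 0.41 ± 0.053 (SE, adjusted p = 8.95e-07) in RANKL + UD against control.

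Mcm7 changed the least, at 28.9, 27.8 and 28.2 in control, 22.8, 25.7 and 24.4 in RANKL, and 27.2, 28.4 and 27.6 in RANKL + UD. Its RANKL libraries were again the lowest, and RANKL + UD overlapped control, at 0.19 ± 0.053 (SE, adjusted p = 0.00614) with UD and -0.03 (adjusted p = 0.691) against control. The ratio of Mcm7 to Mcm4 was 0.921 ± 0.0494 (SD, n = 3) in control, 0.932 ± 0.0413 in RANKL and 0.677 ± 0.016 in RANKL + UD, where all 3 libraries lay below all others (exact two-sided permutation test, p = 0.1, the smallest that 3 against 3 libraries can give). This pair joins the smallest and the largest rise with UD of the complex, so the test adds little to the values of the single genes. Such ratios were computed for 10 pairs of subunits, 30 comparisons in all, and the smallest p after Benjamini-Hochberg adjustment over these exact tests was 0.143. Mcm2, Mcm5 and Mcm6 fell with RANKL by between 0.41 and 0.45 on the log2 scale and rose with UD by between 0.51 and 0.57. Mcm6 passed the test of RANKL + UD against control at 0.13 (adjusted p = 0.0447) and lost that call without control replicate 1 (0.11, adjusted p = 0.143) or 2 (0.09, adjusted p = 0.193), without RANKL replicate 2 (0.13, adjusted p = 0.0579) and without RANKL + UD replicate 2 (0.09, adjusted p = 0.206) or 3 (0.14, adjusted p = 0.0665). The call was also lost with total counts (adjusted p = 0.0501) and by limma on log2(FPKM + 1) (adjusted p = 0.0685). Mcm2 and Mcm3 did not pass that test with all libraries and passed it without control replicate 3, at 0.16 (adjusted p = 0.0295) and 0.14 (adjusted p = 0.0241).

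Polymerase α-primase starts every new strand, and its 4 genes also fell with RANKL and rose with UD, with none called in RANKL + UD against control. The catalytic primase subunit Prim1 had the largest changes, at 12.4, 11.3 and 11.6 in control, 7.86, 6.76 and 7.23 in RANKL, and 10.9, 11.0 and 12.1 in RANKL + UD. The RANKL libraries lay below all others, while control and RANKL + UD overlapped, and the log2 fold changes were -0.69 ± 0.080 (SE, adjusted p = 2.20e-07) with RANKL and 0.64 ± 0.080 (SE, adjusted p = 2.27e-06) with UD. For the large primase subunit Prim2 the libraries gave 5.86, 6.09 and 7.16 in control, 5.80, 5.27 and 5.31 in RANKL, and 7.34, 6.77 and 6.33 in RANKL + UD. The RANKL values all lay under the lowest control value of 5.86, the highest of them, 5.80, by a narrow margin. Its fall was small, -0.22 ± 0.088 (SE, adjusted p = 0.0370), and did not pass without control replicate 3 (-0.13, adjusted p = 0.204) or RANKL replicate 2 (-0.20, adjusted p = 0.112) or 3 (-0.20, adjusted p = 0.0991). It also missed the threshold with RLE size factors (adjusted p = 0.0544), without an expression filter (adjusted p = 0.0588), with the 6 libraries of the comparison only (adjusted p = 0.0739) and by DESeq2 (adjusted p = 0.0595). The rise of Prim2 with UD was 0.32 ± 0.087 (SE, adjusted p = 0.00598).

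Pola1, the polymerase itself, stood at 11.2, 10.7 and 10.7 in control, 8.39, 8.42 and 7.75 in RANKL, and 10.7, 10.3 and 11.2 in RANKL + UD. With UD it overlapped control, the log2 fold change against control being -0.02 (adjusted p = 0.801) after -0.41 ± 0.056 (SE, adjusted p = 2.48e-06) with RANKL and 0.39 ± 0.056 (SE, adjusted p = 1.25e-05) with UD. Pola2, the regulatory B subunit, changed by -0.35 ± 0.076 (SE, adjusted p = 5.17e-04) and 0.40 ± 0.076 (SE, adjusted p = 2.48e-04) in the same comparisons. The ratio of Prim1 to Prim2 was 1.86 ± 0.246 (SD, n = 3) in control, 1.33 ± 0.045 in RANKL and 1.67 ± 0.223 in RANKL + UD, with the RANKL libraries below all others (exact two-sided permutation test, p = 0.1, the smallest possible, against either group). Prim1 had the largest and Prim2 the smallest change of the complex at both steps, so the test adds little to the values of the single genes.

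The subunits of polymerase δ, the lagging-strand enzyme, did not move together. Pold1, its catalytic subunit, measured 6.48, 7.42 and 8.73 in control, 4.74, 5.13 and 5.22 in RANKL, and 5.75, 7.29 and 7.34 in RANKL + UD. The RANKL libraries were the lowest, with -0.58 ± 0.11 (SE, adjusted p = 1.00e-04) against control and 0.43 ± 0.11 (SE, adjusted p = 0.00355) for the addition of UD. Pold4, the small accessory subunit, went the other way at 9.43, 9.29 and 7.63 in control, 13.6, 15.6 and 16.4 in RANKL, and 9.57, 8.41 and 8.27 in RANKL + UD. All 3 RANKL libraries lay above all others and the control and RANKL + UD libraries overlapped. Pold4 rose with RANKL by 0.79 ± 0.12 (SE, adjusted p = 1.27e-05), fell with UD by 0.79 on the log2 scale (adjusted p = 2.91e-05), and differed from control by -0.01 ± 0.13 (SE, adjusted p = 0.972) in RANKL + UD. It was the one replisome gene that fell with UD.

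The ratio of Pold4 to Pold1 was 1.46, 1.25 and 0.874 in the control libraries, 2.87, 3.05 and 3.13 in RANKL and 1.66, 1.15 and 1.13 in RANKL + UD. The RANKL libraries stood apart from both other groups, at p = 0.1 by an exact two-sided permutation test in each comparison, the smallest it can give. That outcome was fixed in advance, since Pold4 lay above and Pold1 below all other libraries in RANKL. The test therefore adds nothing to the values of the single genes. The ratios of Pold4 to Pold2 and to Pold3 were likewise above all other libraries in RANKL, at 1.88 ± 0.0772 and 1.46 ± 0.138 (SD, n = 3). In GENCODE, 24.6% of the exonic bases of Pold4 are shared with the readthrough transcript Gm45928, to which no read was assigned, and how reads in shared exons were counted is not given in the sources used here.

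Pold2, which bridges the catalytic subunit and the rest, gave 7.68, 8.79 and 11.3 in control, 7.21, 8.69 and 8.37 in RANKL, and 12.0, 10.2 and 12.0 in RANKL + UD. Control replicates of Pold2 spread widely and overlapped both other groups. It did not pass the test with RANKL (-0.19, adjusted p = 0.209) and rose with UD by 0.50 ± 0.13 (SE, adjusted p = 0.00374). Its call against control in RANKL + UD (0.30, adjusted p = 0.0485) was lost without either of control replicates 1 (0.19, adjusted p = 0.241) and 2 (0.26, adjusted p = 0.145), RANKL replicates 2 (0.30, adjusted p = 0.0533) and 3 (0.30, adjusted p = 0.0569), or RANKL + UD replicates 1 (0.26, adjusted p = 0.140) and 3 (0.26, adjusted p = 0.141). It was also lost with the 6 libraries of the comparison only (adjusted p = 0.0579), by limma on log2(FPKM + 1) (adjusted p = 0.0892) and by DESeq2 (adjusted p = 0.0506). Pold3, which holds a PCNA-binding motif, stood at 10.6, 11.1 and 11.2 in control, 10.4, 10.3 and 10.4 in RANKL, and 11.9, 11.9 and 10.9 in RANKL + UD. Its RANKL libraries were the lowest by a narrow margin, and with TMM and all libraries it passed no test. It passed that of UD against RANKL without RANKL + UD replicate 3 (0.20, adjusted p = 0.0407), with total counts (0.24, adjusted p = 0.00549) and by limma on log2(FPKM + 1) (0.22, adjusted p = 0.00649). With RANKL, Pold3 passed as lower with total counts (-0.17, adjusted p = 0.0312) and by that limma fit (-0.15, adjusted p = 0.0210).

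In polymerase ε, the leading-strand enzyme, the catalytic subunit and the smallest accessory subunit moved in opposite directions with RANKL. Pole, the catalytic subunit, read 6.09, 5.93 and 6.81 in control, 3.92, 3.59 and 3.62 in RANKL, and 5.43, 5.59 and 5.57 in RANKL + UD. None of its 3 groups overlapped, and RANKL + UD came close to control without reaching it. The log2 fold changes of Pole were -0.76 ± 0.068 (SE, adjusted p = 4.18e-09) with RANKL, the largest fall among the 35 genes, and 0.57 ± 0.068 (SE, adjusted p = 9.86e-07) with UD. Against control it stayed lower in RANKL + UD, at -0.18 ± 0.066 (SE, adjusted p = 0.0245), a call that was lost without control replicate 3 (-0.12, adjusted p = 0.129) or RANKL + UD replicate 1 (-0.17, adjusted p = 0.0832) or 3 (-0.19, adjusted p = 0.0529), without an expression filter (adjusted p = 0.0852) and by limma on log2(FPKM + 1) (adjusted p = 0.0560). The histone-fold subunit Pole4 rose at both steps, at 10.9, 11.1 and 10.5 in control, 13.8, 14.7 and 15.4 in RANKL, and 19.6, 17.96 and 19.1 in RANKL + UD. All groups were separate and in rising order.

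The log2 fold changes of Pole4 were 0.44 ± 0.077 (SE, adjusted p = 5.33e-05) with RANKL, 0.37 ± 0.074 (SE, adjusted p = 5.07e-04) with UD and 0.80 ± 0.076 (SE, adjusted p = 1.21e-08) in RANKL + UD against control, the largest rise of the 35 genes in that comparison. Its histone-fold partner Pole3 followed the other replisome genes instead, at 22.2, 20.2 and 22.5 in control, 17.0, 15.4 and 16.5 in RANKL, and 23.4, 23.4 and 20.1 in RANKL + UD. The RANKL libraries of Pole3 were the lowest, and its changes were -0.41 ± 0.080 (SE, adjusted p = 1.86e-04) with RANKL and 0.45 ± 0.080 (SE, adjusted p = 1.29e-04) with UD. The ratio of Pole4 to Pole3 was 0.501 ± 0.042 (SD, n = 3) in control, 0.901 ± 0.0774 in RANKL and 0.852 ± 0.0907 in RANKL + UD, and both treated groups lay above control without overlap (exact two-sided permutation test, p = 0.1, the smallest possible). For RANKL that outcome was fixed in advance, since Pole4 lay above and Pole3 below all control libraries. Pole2, the second-largest subunit, had values of 7.34, 6.77 and 7.75 in control, 5.96, 6.09 and 6.72 in RANKL, and 8.24, 9.07 and 7.44 in RANKL + UD. Its RANKL libraries were the lowest, and control and RANKL + UD overlapped. It rose with UD by 0.40 ± 0.10 (SE, adjusted p = 0.00330), while its difference with RANKL was -0.22 (adjusted p = 0.0725) and passed only without RANKL replicate 3 among the fits that left out a library (-0.27, adjusted p = 0.0489). It also passed with total counts (-0.31, adjusted p = 0.0135) and by limma on log2(FPKM + 1) (-0.27, adjusted p = 0.0154).

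**Figure D3:**
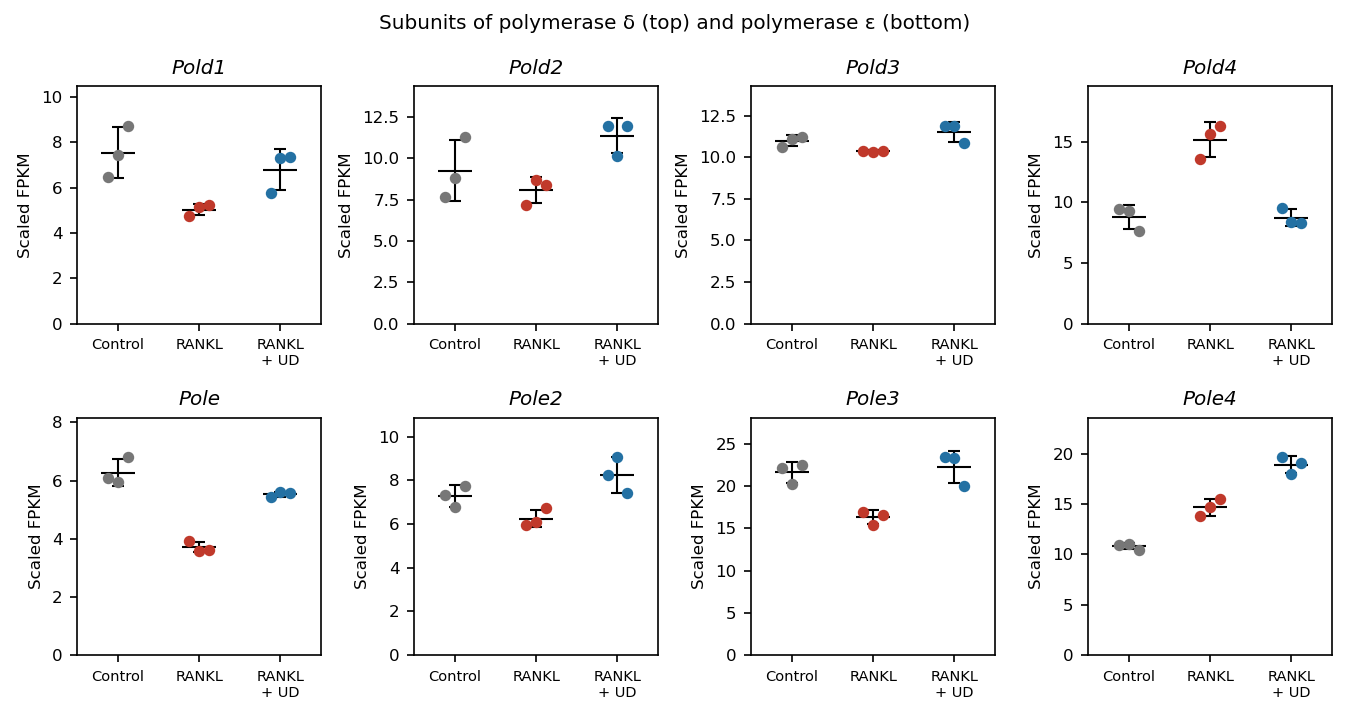
Scaled FPKM (from 0) of the 4 subunit genes of polymerase δ (top row) and polymerase ε (bottom row) in control, RANKL and RANKL + UD; points are libraries, the wide bar is the mean and the error bar 1 SD (n = 3). Pold4 is highest in RANKL, Pole4 rises across the 3 groups, and Pold1, Pole and Pole3 are lowest in RANKL.

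Pcna, the ring that tethers the polymerases, was the most abundant of the 35 transcripts per length in all 3 groups, at 111, 114 and 110.2 in control, 94.3, 93.6 and 100.4 in RANKL, and 126, 128 and 126 in RANKL + UD. The 3 groups did not overlap, with RANKL lowest and RANKL + UD highest. Its log2 fold change was -0.22 ± 0.046 (SE, adjusted p = 3.78e-04) with RANKL, 0.40 ± 0.046 (SE, adjusted p = 6.51e-07) with UD and 0.18 ± 0.046 (SE, adjusted p = 0.00201) in RANKL + UD against control. All 5 genes of RFC, which opens the clamp and closes it on DNA, rose with UD, and 4 fell with RANKL. Rfc5 fell the most, at 9.18, 9.46 and 10.5 in control, 6.18, 7.16 and 7.10 in RANKL, and 9.52, 9.79 and 9.59 in RANKL + UD. It lay below both other groups in RANKL, at -0.51 ± 0.079 (SE, adjusted p = 1.05e-05), and overlapped control with UD (-0.01, adjusted p = 0.921).

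Rfc3 read 6.93, 6.42 and 5.29 in control, 5.57, 5.47 and 6.31 in RANKL, and 8.36, 7.80 and 8.52 in RANKL + UD. Control and RANKL overlapped (-0.11, adjusted p = 0.398) and RANKL + UD was above both, at 0.51 ± 0.10 (SE, adjusted p = 3.94e-04) against RANKL and 0.40 ± 0.10 (SE, adjusted p = 0.00186) against control. The rise with UD was largest for Rfc4, which measured 29.7, 26.2 and 25.8 in control, 20.1, 22.1 and 19.8 in RANKL, and 31.4, 29.2 and 31.4 in RANKL + UD. RANKL was lowest there, and the changes were -0.40 ± 0.079 (SE, adjusted p = 2.07e-04) and then 0.57 ± 0.078 (SE, adjusted p = 7.27e-06). Rfc4 did not pass against control (0.17, adjusted p = 0.0664), and passed without control replicate 1 (0.24, adjusted p = 0.0216) and by limma on log2(FPKM + 1) (0.17, adjusted p = 0.0499).

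Rfc1, the large subunit, was at 24.4, 23.1 and 24.0 in control, 18.7, 17.9 and 18.4 in RANKL, and 24.6, 24.7 and 24.6 in RANKL + UD. Its RANKL + UD libraries lay just above the highest control library and RANKL far below, and it changed by -0.38 ± 0.048 (SE, adjusted p = 7.71e-07) with RANKL and 0.43 ± 0.048 (SE, adjusted p = 4.45e-07) with UD. Rfc2 fell with RANKL by 0.23 on the log2 scale (adjusted p = 0.0133), a call lost without control replicate 3 (-0.18, adjusted p = 0.0563) or RANKL replicate 1 (-0.17, adjusted p = 0.0799), and rose with UD by 0.43 ± 0.075 (SE, adjusted p = 9.58e-05). Against control Rfc2 was higher in RANKL + UD by 0.20 (adjusted p = 0.0249), which was lost without control replicate 1 (0.17, adjusted p = 0.0923) or 2 (0.19, adjusted p = 0.0811) and without RANKL + UD replicate 2 (0.18, adjusted p = 0.0978) or 3 (0.19, adjusted p = 0.0712).

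RPA is a trimer that protects single-stranded DNA, and 2 of its 3 genes fell with RANKL and rose with UD. Rpa2, the subunit that checkpoint kinases phosphorylate, gave 14.9, 13.2 and 12.4 in control, 7.99, 7.20 and 9.16 in RANKL, and 11.5, 12.9 and 13.4 in RANKL + UD. RANKL was below every other library, with -0.73 ± 0.097 (SE, adjusted p = 1.31e-06) against control and 0.63 ± 0.097 (SE, adjusted p = 2.51e-05) with UD. Rpa1, the main DNA-binding subunit, was at 23.5, 23.1 and 26.0 in control, 20.6, 20.8 and 21.3 in RANKL, and 29.6, 29.5 and 29.2 in RANKL + UD. None of its groups overlapped and RANKL + UD was the highest, the changes being -0.21 ± 0.052 (SE, adjusted p = 0.00163), 0.50 ± 0.052 (SE, adjusted p = 1.94e-07) and, against control, 0.28 ± 0.052 (SE, adjusted p = 8.95e-05).

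The smallest subunit, Rpa3, stood at 25.9, 25.4 and 20.0 in control, 23.9, 24.8 and 25.6 in RANKL, and 32.1, 26.9 and 27.5 in RANKL + UD. Control replicate 3 was below every other library of Rpa3. Neither step passed the test (0.05, adjusted p = 0.664, with RANKL and 0.22, adjusted p = 0.0839, with UD), although the step with UD passed without control replicate 3 (0.22, adjusted p = 0.0356), with the 6 libraries of the comparison only (0.22, adjusted p = 0.0429), with total counts (0.31, adjusted p = 0.0156) and by limma on log2(FPKM + 1) (0.29, adjusted p = 0.0414). RANKL + UD was higher than control by 0.28 ± 0.099 (SE, adjusted p = 0.0238), a call that was lost without control replicate 3 (0.17, adjusted p = 0.131) or RANKL + UD replicate 1 (0.19, adjusted p = 0.147). The ratio of Rpa2 to Rpa1 was 0.561 ± 0.0781 (SD, n = 3) in control, 0.388 ± 0.0416 in RANKL and 0.428 ± 0.035 in RANKL + UD, both below control without overlap (exact two-sided permutation test, p = 0.1, the smallest possible).

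Among the 7 genes that process Okazaki fragments, 6 fell with RANKL and 4 rose with UD. Over all tested genes these shares were 30.2% and 18.6%. The flap endonuclease gene Fen1 had the largest rise with UD of all 35 genes, at 5.46, 5.18 and 5.42 in control, 4.48, 3.77 and 4.23 in RANKL, and 6.60, 7.19 and 7.17 in RANKL + UD. All groups were separate, RANKL lowest and RANKL + UD highest, with 0.75 ± 0.11 (SE, adjusted p = 1.93e-05) for UD and 0.38 ± 0.11 (SE, adjusted p = 0.00548) against control. Its fall with RANKL was -0.36 ± 0.11 (SE, adjusted p = 0.00998) and did not pass without RANKL replicate 2 (-0.30, adjusted p = 0.0546). Dna2, a helicase-nuclease that trims long flaps, read 13.7, 14.2 and 14.1 in control, 9.97, 9.59 and 8.50 in RANKL, and 10.9, 10.9 and 10.2 in RANKL + UD. RANKL + UD lay between the other groups without overlap, nearer to RANKL.

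Dna2 fell with RANKL by 0.59 on the log2 scale (adjusted p = 9.51e-08) and stayed lower in RANKL + UD, -0.39 ± 0.064 (SE, adjusted p = 2.26e-05) against control. Its rise with UD, 0.19 ± 0.065 (SE, adjusted p = 0.0230), was lost without RANKL replicate 3 (0.13, adjusted p = 0.118) or RANKL + UD replicate 1 (0.18, adjusted p = 0.0759) or 2 (0.18, adjusted p = 0.0785). Lig1, the ligase that seals the fragments, had 22.1, 22.4 and 21.9 in control, 17.5, 17.6 and 19.3 in RANKL, and 24.4, 25.6 and 24.6 in RANKL + UD. Its groups did not overlap, and it changed by -0.29 ± 0.055 (SE, adjusted p = 1.23e-04) with RANKL, 0.46 ± 0.054 (SE, adjusted p = 1.06e-06) with UD and 0.17 ± 0.054 (SE, adjusted p = 0.0119) against control, the last of which was lost without RANKL + UD replicate 2 (0.15, adjusted p = 0.0582).

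RNase H2 removes RNA from RNA-DNA hybrids, and its 3 genes each fell with RANKL while differing in their return. Rnaseh2a, the catalytic subunit, was at 8.02, 8.65 and 8.16 in control, 6.58, 7.37 and 6.63 in RANKL, and 6.98, 6.40 and 7.52 in RANKL + UD. RANKL and RANKL + UD overlapped and both were below control, at -0.27 ± 0.089 (SE, adjusted p = 0.0130) and -0.25 ± 0.089 (SE, adjusted p = 0.0234), with 0.02 (adjusted p = 0.871) between them. Without control replicate 2 both calls were lost (-0.24, adjusted p = 0.0597, and -0.21, adjusted p = 0.0930), and the call against control in RANKL + UD also without RANKL + UD replicate 1 (-0.25, adjusted p = 0.0558) or 2 (-0.19, adjusted p = 0.116) and without an expression filter (adjusted p = 0.0745). Rnaseh2c measured 10.7, 9.23 and 7.08 in control, 6.94, 6.45 and 7.44 in RANKL, and 10.4, 10.8 and 9.80 in RANKL + UD.

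For Rnaseh2c, RANKL + UD lay above RANKL, at 0.57 ± 0.13 (SE, adjusted p = 0.00132), and control spread across both. Its fall with RANKL, -0.38 ± 0.13 (SE, adjusted p = 0.0178), was lost without control replicate 1 (-0.24, adjusted p = 0.142) or 2 (-0.36, adjusted p = 0.0543) or RANKL replicate 2 (-0.33, adjusted p = 0.0709), and against control RANKL + UD passed only without control replicate 1 (0.33, adjusted p = 0.0406). Rnaseh2b, the lowest of the 35 per exonic length, was at 2.68, 2.38 and 2.83 in control, 1.97, 2.38 and 2.17 in RANKL, and 2.66, 2.54 and 2.29 in RANKL + UD. Control and RANKL were separate by a narrow margin and RANKL + UD overlapped both. Its fall with RANKL was -0.27 ± 0.11 (SE, adjusted p = 0.0441), and it was lost without control replicate 1 (-0.26, adjusted p = 0.0991) or 3 (-0.22, adjusted p = 0.136), RANKL replicate 1 (-0.21, adjusted p = 0.168) or 3 (-0.27, adjusted p = 0.0838) or RANKL + UD replicate 2 (-0.27, adjusted p = 0.0539). It was also lost with RLE size factors (adjusted p = 0.0590), without an expression filter (adjusted p = 0.101), with filterByExpr (adjusted p = 0.0503), with the 6 libraries of the comparison only (adjusted p = 0.0768) and by DESeq2 (adjusted p = 0.0751). The difference of Rnaseh2b with UD passed with total counts alone among the alternatives (0.29, adjusted p = 0.0449). Rnaseh1, a separate RNase H, stood at 5.74, 5.99 and 5.34 in control, 4.89, 4.97 and 5.92 in RANKL, and 4.60, 5.69 and 5.95 in RANKL + UD, with all groups overlapping and no test passed.

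Ssbp1 encodes the single-strand binding protein of mitochondria, and its KEGG entry places it beside the nuclear genes. Its libraries gave 10.2, 10.2 and 8.18 in control, 12.6, 11.3 and 12.6 in RANKL, and 12.5, 11.7 and 11.5 in RANKL + UD. Control lay below both treated groups, which overlapped. It rose with RANKL by 0.35 ± 0.073 (SE, adjusted p = 3.22e-04) and was higher in RANKL + UD than in control by 0.32 ± 0.073 (SE, adjusted p = 8.68e-04), with a difference of -0.03 (adjusted p = 0.786) between the treated groups.

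The other 22 entries carried few reads. No read was counted in any library for 14 of them, including both readthrough transcripts, and 6 had at most 6 reads in any library. None of these 20 passed the filter for testing. The 2 that did were the pseudogenes Pcna-ps2, with 12 to 23 reads per library, and Gm12115, with 4 to 40. Gm12115 carries the same KEGG orthology entry as Ssbp1 and read 0.525, 0.777 and 2.35 scaled FPKM in control and 1.55, 2.90 and 4.88 in RANKL, which overlap. Its rise with RANKL, 1.38 ± 0.55 (SE, adjusted p = 0.0374), was lost without control replicate 1 (1.04, adjusted p = 0.138) or 2 (1.12, adjusted p = 0.141) or RANKL replicate 2 (1.42, adjusted p = 0.0602) or 3 (0.90, adjusted p = 0.232) and by limma on log2(FPKM + 1) (0.84, adjusted p = 0.0937), and reads of such a copy can come from the parent gene.

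Some replisome genes share exonic bases with a gene on the opposite strand that had a mean deposited FPKM of at least 1. This held for 7 of the 35, from 5.04% of the exonic bases of Rnaseh2a (with Prdx2) to 24.8% of Rnaseh2c (with Kat5), the others being Fen1, Mcm7, Rfc2, Rfc4 and Rfc5. The labels describe libraries that keep the strand, but whether the counting used it is not given in the sources used here, so reads in these stretches cannot be assigned with certainty.

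Genes that act with the replisome but lack the ko03030 entry were set beside it, from lists chosen by function. Their counts stand beside the shares of all tested genes given above, 27.3% higher and 30.2% lower with RANKL and 18.6% higher and 20.2% lower with UD. Of 17 genes for helicase activation and the fork, 14 fell and none rose with RANKL (median -0.41), and 14 rose and 1 fell with UD (median 0.51). Cdc7, the kinase that fires origins, was at 5.24, 6.70 and 5.78 in control, 3.53, 3.24 and 3.18 in RANKL, and 6.53, 6.38 and 6.66 in RANKL + UD. Its RANKL libraries were the lowest, and it changed by -0.83 ± 0.10 (SE, adjusted p = 4.94e-07) and then 0.97 ± 0.10 (SE, adjusted p = 1.76e-07). Mtbp, an origin-firing factor, was the one that fell with UD, by 0.26 on the log2 scale (adjusted p = 0.00606).

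The list for origin licensing and helicase loading held 12 genes, with Gmnn, Mcm8, Mcm9 and Mcmbp among them, not all of which license origins. Of the 12, 3 rose and 5 fell with RANKL (median -0.09), which is near the shares of all tested genes. With UD, 8 rose and none fell (median 0.29). Orc2, of the origin recognition complex, stood at 15.9, 17.4 and 16.6 in control, 22.2, 20.3 and 20.1 in RANKL, and 26.2, 26.2 and 27.5 in RANKL + UD, and rose at both steps, by 0.32 ± 0.059 (SE, adjusted p = 7.79e-05) and 0.35 ± 0.058 (SE, adjusted p = 5.39e-05). Cdc6, which helps to load MCM2-7, moved like most of the replisome genes, at -0.43 ± 0.089 (SE, adjusted p = 3.49e-04) with RANKL and 0.51 ± 0.089 (SE, adjusted p = 1.21e-04) with UD. Cdt1, its loading partner, rose with RANKL by 0.29 ± 0.095 (SE, adjusted p = 0.0132) and did not pass with UD (0.02, adjusted p = 0.868). Its control libraries, at 10.32, 10.84 and 14.24, overlapped those of RANKL, at 14.56, 13.65 and 14.98.

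Of 9 genes for other clamp loaders and clamp regulators, 2 rose and 4 fell with RANKL (median -0.11), and 3 rose and 1 fell with UD (median 0.10), counts too small to set apart from the shares of all tested genes. Pclaf, a PCNA-binding protein, had a mean scaled FPKM of 45.3 in control, 25.6 in RANKL and 44.8 in RANKL + UD, with changes of -0.82 ± 0.067 (SE, adjusted p = 8.99e-10) and 0.81 ± 0.067 (SE, adjusted p = 6.81e-09). Poldip2, a polymerase δ interacting protein, rose with RANKL by 0.74 ± 0.094 (SE, adjusted p = 6.99e-07) and was not called with UD (0.10, adjusted p = 0.434). Of 6 genes for histone chaperones and maintenance methylation at the fork, 5 fell and none rose with RANKL (median -0.52), and all 6 rose with UD (median 0.55). Asf1b, a histone H3-H4 chaperone, changed the most with RANKL, -1.29 ± 0.082 (SE, adjusted p = 1.41e-11).

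E2F, RB and DREAM factors control the transcription of replication genes. Of 19, 12 fell and none rose with RANKL (median -0.46), 11 rose and 1 (Tfdp2) fell with UD (median 0.32), and 2 rose and 10 fell in RANKL + UD against control (median -0.26). E2f2, an activating E2F, measured 8.60, 9.11 and 6.75 in control, 1.56, 1.55 and 1.93 in RANKL, and 2.11, 2.60 and 2.30 in RANKL + UD. Control was far above both treated groups, which were themselves separate, and the changes were -2.28 ± 0.13 (SE, adjusted p = 1.77e-12) with RANKL, 0.47 ± 0.14 (SE, adjusted p = 0.0101) with UD and -1.81 ± 0.12 (SE, adjusted p = 5.53e-11) against control. Mybl2, a MuvB partner in S and G2 phase, was at 6.86, 5.92 and 7.24 in control, 6.99, 7.18 and 7.82 in RANKL, and 14.1, 14.4 and 14.3 in RANKL + UD. It rose with UD by 0.96 ± 0.077 (SE, adjusted p = 4.61e-09) and against control by 1.10 ± 0.078 (SE, adjusted p = 1.19e-10).

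Markers of mitosis moved with the same groups. Of 15, 14 fell and 1 (Bub1) rose with RANKL (median -0.79), all 15 rose with UD (median 0.61), and 1 rose and 7 fell in RANKL + UD against control (median -0.17). Their summed scaled FPKM ran from 535 to 578 in control, from 314 to 330.0 in RANKL and from 485 to 497 in RANKL + UD, without overlap. Mki67, the proliferation marker, read 102, 98.3 and 112 in control, 53.4, 54.5 and 44.3 in RANKL, and 81.5, 83.9 and 83.0 in RANKL + UD. The part of mitotic cells, or of cells at other stages of the cycle, in the replication values was not tested, and neither was that of the osteoclast markers given above. The KEGG cell cycle pathway without the ko03030 genes had 119 tested genes, of which 27 rose and 49 fell with RANKL (median -0.11) and 50 rose and 14 fell with UD (median 0.14).

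**Figure D4:**
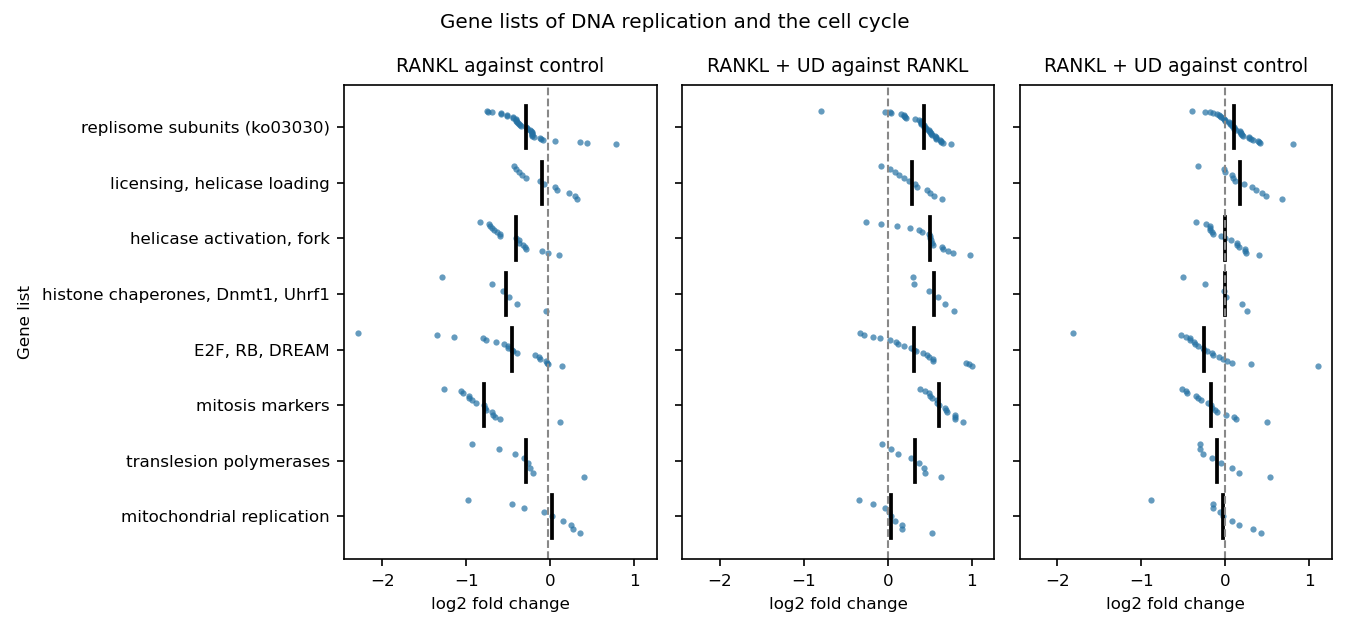
Log2 fold changes of single genes (points, ordered by value within a list) for the 35 replisome genes and 7 other lists in the 3 comparisons (panels, on one scale); the black bar is the list's median and the dashed line the median of all 11995 tested genes. The replisome median is -0.29, 0.43 and 0.10 in the 3 panels, and that of the mitosis markers -0.79, 0.61 and -0.17; Ssbp1 is in both the first and the last list.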

How the data were processed

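Poly(A)-selected RNA of RAW264.7 cells was sequenced in 9 libraries. The counts are whole reads per gene, deposited by the authors without normalization, and the deposited FPKM divide them by exonic gene length and library total, which recomputed to within 0.0051 in 100% of values. Exonic gene lengths in bases come from the same deposited table. The submitters' processing notes name mm10; the table's gene coordinates matched GRCm38 exactly for only 1472 of 52073 shared genes, so none is printed. The aligner and counting tool are not given in the sources used here. Groups came from the sample labels, and the table's columns named Model were read as RANKL, the name the paper gives that group.

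The 11995 genes that reached a deposited FPKM of 1 in 3 or more libraries were tested with edgeR 4.0.16 in R 4.3.3 (quasi-likelihood test, TMM scaling, all 9 libraries in one fit, common dispersion 0.00401, Benjamini-Hochberg adjustment over all tested genes), and an adjusted p under 0.05 was a call. TMM factors were 0.959 to 0.962 for RANKL and 1.01 to 1.03 for the other libraries. Depth ran from 15951800 to 19746862 reads, with a median of 19182637. The labels call the libraries replicate biosamples and say no more of separate cultures, so p-values measure the spread between these libraries. Replicates differed by more than sampling noise (chi-square per degree of freedom 3.00 to 9.75). Library batches or dates are not named in the labels. The procedure was tested on simulated data in which few genes changed, in RANKL alone and evenly up and down. It does not cover the far larger share of genes called in these data.

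The members and the lists were chosen with earlier results of these data known. The pairs of subunits for the ratios were not fixed in advance. Values per library are given for the genes with the largest and smallest change of each complex and comparison and for those whose direction differs from most of their complex; Pold1 and single genes of the other lists were added after their values were seen. Alternatives were RLE size factors, total counts without further scaling, no expression filter, filterByExpr, a fit to the 6 libraries compared, a replicate block, limma 3.58.1 on log2(FPKM + 1) and log2(FPKM + 0.1), DESeq2 1.42.0, and leaving out each library. Promoter windows are from RefSeq (GRCm38.p6); gene biotypes and exon overlaps are from GENCODE vM21. A list of lymphocyte markers is not reported here. Columns of annotation other than the KEGG pathway and orthology were not used. Python 3.11.15, pandas 2.3.3 and scipy 1.17.1 were used for the tables.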

Additional observations from a re-analysis of the deposited data

How the results depend on the processing

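Of the 35 replisome genes, 29 were called in RANKL against control, 29 in RANKL + UD against RANKL and 15 in RANKL + UD against control. Over 18 alternatives, 23, 28 and 8 of these stayed called in the same direction in every one, and none of the called genes changed sign. Counts over all 37 tested entries ranged, over alternatives other than leaving out a library, from 24 to 28 lower and 3 to 4 higher with RANKL, from 28 to 31 higher with 1 lower in each with UD, and from 10 to 13 higher and 1 to 3 lower in RANKL + UD against control. The members' median of -0.27 with RANKL moved to -0.36 with total counts, -0.32 with limma on log2(FPKM + 1) and -0.35 with a pseudocount of 0.1, and that of 0.43 with UD to 0.52, 0.48 and 0.51. The share of calls that were higher over all tested genes was 47.5% with RANKL and 48.0% with UD by TMM, beside 36.8% and 66.2% by total counts, 36.9% and 65.7% by limma, and 37.0% and 66.0% by limma with the pseudocount of 0.1. For UD, 2233 genes were higher and 2418 lower by TMM. By total counts 3350 were higher, and by limma 1556 or, with a pseudocount of 0.1, 1536 were lower. Against control, 1 entry rather than 3 was lower in RANKL + UD without an expression filter and without RANKL + UD replicate 1, so that this count ran from 1 to 3 when libraries were left out. The cause of these shifts was not tested.

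Genes that changed sign were all uncalled in that comparison. With total counts, limma and limma with 0.1, Rpa3 was at -0.0335, -0.0200 and -0.0204 with RANKL and Ssbp1 at 0.0563, 0.0522 and 0.0562 with UD. Gm12115 was at 0.0067 with UD by limma with 0.1. Without a filter Pola1 was at 0.00094, Pold4 at 0.014 and Rfc5 at 0.0089 against control in RANKL + UD, and with filterByExpr Pold4 was at 0.00026. Leaving out libraries gave ranges with RANKL of -0.0634 to 0.255 for Pcna-ps2 and -0.0516 to 0.117 for Rpa3. With UD they were -0.46 to 0.37 for Gm12115, -0.0364 to 0.147 for Rnaseh1 and -0.034 to 0.0789 for Rnaseh2a. Against control in RANKL + UD they were -0.0499 to 0.0076 for Pola1, -0.094 to 0.0451 for Pold4, -0.0027 to 0.11 for Pole3, -0.0481 to 0.0473 for Rfc5 and -0.152 to 0.0331 for Rnaseh1.

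Groups share replicate numbers, but deviations of same-numbered libraries correlated at only -0.0194 to 0.0984 over 9 pairs, none over 0.1, so the numbers were not taken to pair the samples. Those of different-numbered libraries ran from -0.102 to 0.0464, so same-numbered pairs reached somewhat higher. With the replicate number as a block, 4 entries were higher and 26 lower with RANKL (median -0.27), as without the block. With UD, 28 were higher and 1 lower, also as without it. Over all tested genes the block gave 2347 higher and 2518 lower with UD, beside 2233 and 2418 without it. At this depth the 20 entries with 6 reads or fewer in any library could not be compared, and 3 libraries per group cannot give an exact two-sided p under 0.1.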

Other observations

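Genes of DNA repair that share enzymes with replication were counted in the same way, beside shares over all tested genes of 27.3% higher and 30.2% lower with RANKL, 18.6% higher and 20.2% lower with UD, and 26.7% higher and 27.3% lower in RANKL + UD against control. Of 29 tested genes of the KEGG homologous recombination pathway without the ko03030 entry, 1 rose and 17 fell with RANKL (median log2 fold change -0.32), 17 rose and 2 fell with UD (median 0.38), and 6 rose and 4 fell in RANKL + UD against control (median -0.006). Of 7 mismatch repair genes, 1 rose and 4 fell with RANKL (median -0.26), and 4 rose and none fell with UD (median 0.27). Of 8 translesion synthesis genes, 1 rose and 5 fell with RANKL (median -0.29), and 5 rose and none fell with UD (median 0.32). Polk, a translesion polymerase, was the one that rose with RANKL, by 0.41 ± 0.068 (SE, adjusted p = 2.52e-05), and Polq, the polymerase of theta-mediated end joining, fell by 0.93 on the log2 scale (adjusted p = 5.36e-08).

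The 9 genes of mitochondrial DNA replication, Ssbp1 among them, had 2 higher and 2 lower with RANKL (median 0.03), 1 higher and 1 lower with UD (median 0.04), and 2 higher and 1 lower in RANKL + UD against control (median -0.03), counts too small to set apart from those shares. Polg2, the accessory subunit of the mitochondrial polymerase, measured 2.72, 3.22 and 3.10 in control, 1.64, 1.46 and 1.502 in RANKL, and 1.75, 1.57 and 1.56 in RANKL + UD. Control was above both treated groups, with -0.98 ± 0.13 (SE, adjusted p = 2.33e-06) for RANKL and 0.09 (adjusted p = 0.677) for UD. Twnk, the mitochondrial helicase, rose with RANKL by 0.27 ± 0.081 (SE, adjusted p = 0.00777) and fell with UD by 0.34 on the log2 scale (adjusted p = 0.00236).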
